A study of Rattus norvegicus with 72 samples.

Results

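A set of 10 genes of the ATF4 and CHOP stress response was followed across 8 compounds in cultured rat liver cells: Atf4, Ddit3, Atf5, Trib3, Asns, Chac1, Nupr1, Sesn2, Ddit4 and Ddit4l. They were taken by symbol, as every probe set that the platform annotation assigns to one of these 10 genes, which gave 13 of the 31099 probe sets on the Affymetrix rat array. Trib3 had 3 probe sets, Sesn2 had 2 and the other genes had 1 each. All 13 probe sets passed the filter on dim signals, which kept 18048 probe sets. Ddit4l passed it only through exposed groups, as the mean of every control group lay below the level required. The cells were primary rat hepatocytes in monolayer, all kept in serum-free medium with hydrocortisone and insulin, and total RNA was taken after 24 h or 72 h of exposure. The exposed groups were aflatoxin B1 at 19 nM, 4-(methylnitrosamino)-1-(3-pyridyl)-1-butanone (NNK) at 625 µM and 2-nitrofluorene at 78 µM, which the study lists as genotoxic carcinogens. Wy-14643 at 250 µM, piperonyl butoxide at 13.4 µM and methapyrilene hydrochloride at 8.5 µM were its non-genotoxic carcinogens, and nifedipine at 156 µM and clonidine hydrochloride at 277 µM its non-carcinogens. Each compound was set against the control cultures of its own set at the same time. Aflatoxin B1, Wy-14643 and clonidine shared one set of controls, 2-nitrofluorene, piperonyl butoxide and nifedipine shared another, and NNK and methapyrilene each had their own. There were 24 groups of 3 arrays, 72 arrays in all, and the protocol gives the 3 as independent experiments. The vehicle of the controls was not given in the sources used here, and each compound was tested at 1 dose.

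ATF4 and CHOP act in the integrated stress response, in which kinases that sense endoplasmic reticulum stress, amino acid shortage, heme deficiency or double-stranded RNA phosphorylate eIF2. General translation then falls while the mRNAs of a few factors, ATF4 among them, are translated better, so that ATF4 protein can change with little change of Atf4 mRNA. In the liver this pathway supplies genes for amino acid synthesis, amino acid uptake and tRNA charging, and with persistent stress it induces CHOP, the product of Ddit3. The values below are mRNA signals, and neither eIF2 phosphorylation nor any protein was measured.

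The deposited values are MAS5 intensities, which carry no unit, and a change is a difference of log2 intensities, compound minus control, with the standard error of the fit after the ± sign. The 9 hepatocyte markers measured, among them Alb, Ttr and Hnf4a, lay between the 97.93rd and 99.95th percentile of all probe sets. The labels number the arrays of a compound and its controls by a D number, from 1 to 9. All 4 groups of D number 3 (aflatoxin B1, Wy-14643, clonidine and their control) stood apart: on a score over 3937 probe sets that moved with culture time in other controls, their arrays labelled 72 h lay below those labelled 24 h, by -0.50 ± 0.13 (SD, n = 4 pairs), against 0.58 ± 0.17 for D numbers 1 and 2 (SD, n = 8 pairs). A high ratio of 3' over 5' beta-actin signal, a sign of shortened RNA, was seen on 10 arrays, with log2 ratios of 1.84 to 2.71 against 0.36 to 1.11 on the other 62. These 10, called the high-actin arrays below, were the 8 arrays of D number 3 and 2 arrays of aflatoxin B1 (replicate 1 of 24 h, replicate 2 of 72 h). Member calls and gene list counts in aflatoxin B1 and Wy-14643 cells are therefore also given without D number 3. Leaving out the high-actin arrays leaves 1 aflatoxin B1 array at each time, so the values of that fit compare a single exposed array with 2 controls, and its p-values take the spread from the other groups.

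Of 208 pairs of probe set and comparison, 19 passed the test at an adjusted p under 0.05, with 10 higher and 9 lower in exposed cells, where 0.799% of all pairs over the 16 comparisons were higher and 0.798% lower. They fell on 7 of the 10 genes and in 8 of the 16 comparisons. Asns, Atf5, Chac1 and Nupr1 fell where they passed, after aflatoxin B1 or NNK. Sesn2, Ddit3 and Ddit4l rose where they passed. Atf4, Trib3 and Ddit4 passed in no comparison of this main fit, and each passed in some alternative fits given below.

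**Figure D1:**
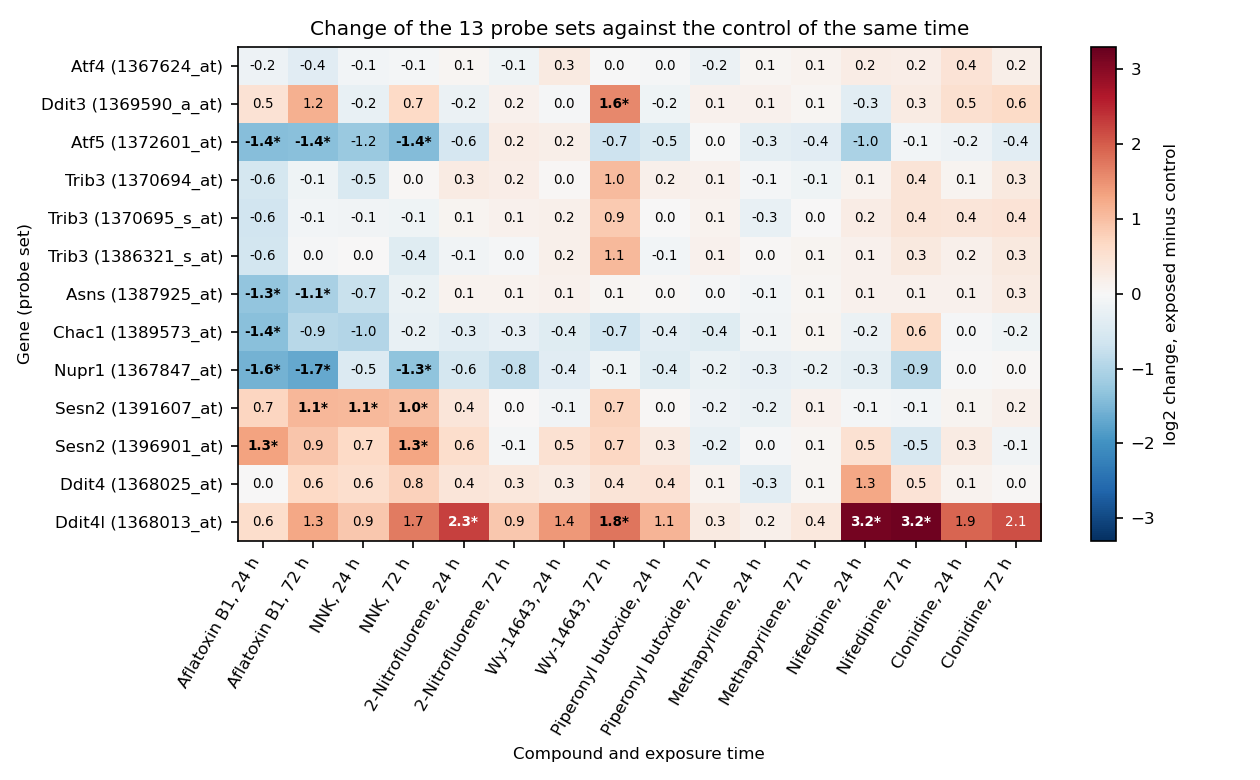
Change of each of the 13 probe sets (rows) in each of the 16 comparisons (columns), as the log2 difference of exposed minus control groups of 3 arrays each. Asterisks and bold type mark the 19 cells with an adjusted p under 0.05, which gather in the aflatoxin B1 and NNK columns and in the Ddit4l row.

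After 24 h of aflatoxin B1, Asns, Chac1, Atf5 and Nupr1 were lower, and 1 of the 2 Sesn2 probe sets was higher. Of the 13 probe sets 1 rose and 4 fell, where 1.8% of all probe sets tested rose and 1.53% fell. The median change was -0.59 over the 13 and -0.04 over all 18048. After 72 h, 1 rose and 3 fell, against 2.78% rising and 2.13% falling over all probe sets, with a median change of -0.09 and 0.01.

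Asns, the enzyme that makes asparagine from aspartate and glutamine, read 250.0, 225 and 256 in aflatoxin B1 cells at 24 h, against 588, 599 and 603 in controls. At 72 h it read 355, 326 and 328 in aflatoxin B1 cells, against 766, 849 and 535 in controls. Every exposed array was thus below every control array at both times. The changes were -1.29 ± 0.22 at 24 h (adjusted p = 6.51e-05) and -1.06 ± 0.22 at 72 h (adjusted p = 0.000878), or 2.45-fold and 2.09-fold lower. Without the arrays of D number 3 they were -1.32 and -1.25, and both calls were kept there and with any 1 array left out. The single aflatoxin arrays that are not high-actin gave -1.40 and -1.18.

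Chac1, which splits glutathione and is a classical target of ATF4, read 164, 114 and 109 in aflatoxin B1 cells at 24 h, against 272, 359.6 and 374 in controls. No array of one group reached the range of the other, and Chac1 fell by 1.39 on the log2 scale with a standard error of 0.31 (adjusted p = 0.00344). That call was lost without D number 3, at a change of -1.19 (adjusted p = 0.0559), and with the single aflatoxin array that is not high-actin, at -1.45 (adjusted p = 0.102). At 72 h Chac1 read 119, 156 and 189 in aflatoxin B1 cells, against 249, 242 and 389 in controls. These groups did not overlap either, but the change of -0.91 ± 0.31 did not pass (adjusted p = 0.0787).

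Atf5 encodes a bZIP factor that is abundant in liver and, like ATF4, is translated better when eIF2 is phosphorylated. It read 905, 964 and 896 in aflatoxin B1 cells at 24 h, against 2575, 2921 and 1921 in controls, a fall of 2.64-fold. At 72 h the values were 1339, 587 and 1270.5 in aflatoxin B1 cells, against 2023, 3164 and 2758 in controls, a fall of 2.61-fold. The groups were apart at both times, with changes of -1.40 ± 0.36 (adjusted p = 0.0136) and -1.38 ± 0.36 (adjusted p = 0.0117). The 24 h call was lost without control replicate 2 (adjusted p = 0.063), without aflatoxin replicate 3 (adjusted p = 0.0634) and with the single aflatoxin array that is not high-actin (adjusted p = 0.177). The 72 h call was lost without control replicate 2 (adjusted p = 0.0945), without aflatoxin replicate 2 (adjusted p = 0.322) and with the single array that is not high-actin, where the change was -0.92 (adjusted p = 0.511). Both calls were kept without D number 3, at -1.55 and -1.51 (adjusted p = 0.0351 and 0.018).

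Nupr1, a small chromatin-binding protein induced by many stresses, read 1119, 729 and 793 in aflatoxin B1 cells at 24 h, against 2118, 1588 and 4921 in controls. After 72 h its values were 1132, 562 and 1598 in aflatoxin B1 cells, against 3558, 3530.0 and 2732 in controls. All exposed arrays were below all control arrays, by 2.95-fold and 3.23-fold on average (log2 changes -1.56 ± 0.33, adjusted p = 0.00197, and -1.69 ± 0.33, adjusted p = 0.000449). The 24 h call was lost without control replicate 3, which read highest (adjusted p = 0.0743), without D number 3, at -1.02 (adjusted p = 0.0745), with the single aflatoxin array that is not high-actin (adjusted p = 0.0725) and in the fit over the groups of the same D numbers (adjusted p = 0.179). The 72 h call was kept with any 1 array left out and without D number 3 (-2.15), and lost in the fit over the groups of the same D numbers (adjusted p = 0.083).

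Sesn2, an inhibitor of mTORC1 that both ATF4 and p53 are known to induce, moved the other way. Its brighter probe set read 428, 482 and 522 in aflatoxin B1 cells at 24 h, against 249, 303 and 319 in controls. At 72 h it read 619, 531 and 418 in aflatoxin B1 cells, against 246, 227 and 256 in controls. The groups were apart at both times, and the change passed at 72 h (1.09 ± 0.26, adjusted p = 0.0052) but not at 24 h (0.72 ± 0.26, adjusted p = 0.13). The dimmer probe set read 29.8, 42.0 and 39.9 in aflatoxin B1 cells at 24 h, against 18.3, 22.7 and 7.72 in controls. Here the 24 h change passed (1.32 ± 0.35, adjusted p = 0.0181) and the 72 h change did not (0.93 ± 0.35, adjusted p = 0.127), although it did without D number 3 (1.20, adjusted p = 0.0427) and with log2(value + 16) in place of the floor (adjusted p = 0.0279). Without control replicate 3 the 24 h change of the dimmer probe set was 0.86 (adjusted p = 0.206), and the call was also lost without aflatoxin replicate 2 or 3 (adjusted p = 0.0721 and 0.0952), without D number 3 (adjusted p = 0.298), with the single aflatoxin array that is not high-actin (adjusted p = 0.453) and in the groups of the same D numbers (adjusted p = 0.0749). With log2(value + 16) its 24 h change was 0.75. The 72 h call of the brighter one was kept without D number 3, at 1.28, and lost with the single array that is not high-actin (adjusted p = 0.0646), at 1.39.

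Atf4 itself read 1508, 1815 and 1534 in aflatoxin B1 cells at 24 h, against 1922, 2255 and 1401 in controls. At 72 h Atf4 read 1391, 1313 and 2068 in aflatoxin B1 cells, against 1907, 2243 and 1896 in controls. The groups overlapped at both times, with changes of -0.18 ± 0.17 (95% interval -0.51 to 0.16, adjusted p = 0.737) and -0.37 ± 0.17 (95% interval -0.70 to -0.03, adjusted p = 0.242). The 72 h change was -0.61 and passed without D number 3 (adjusted p = 0.025), and it was -0.57 and passed without aflatoxin replicate 3 alone (adjusted p = 0.0392). Ddit3, which encodes CHOP, read 175, 598 and 226 in aflatoxin B1 cells at 72 h, against 82.7, 104 and 236 in controls. Its change of 1.18 ± 0.49 did not pass (adjusted p = 0.191), and without D number 3 it was 1.80 and passed (adjusted p = 0.0149). The 3 probe sets of Trib3, a pseudokinase that CHOP induces, changed by -0.59, -0.64 and -0.62 at 24 h, and none passed. Ddit4l changed by 1.27 ± 0.56 at 72 h (adjusted p = 0.223) and, of the fits with 1 array left out, passed in that without aflatoxin replicate 1 (1.94, adjusted p = 0.0311).

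**Figure D2:**
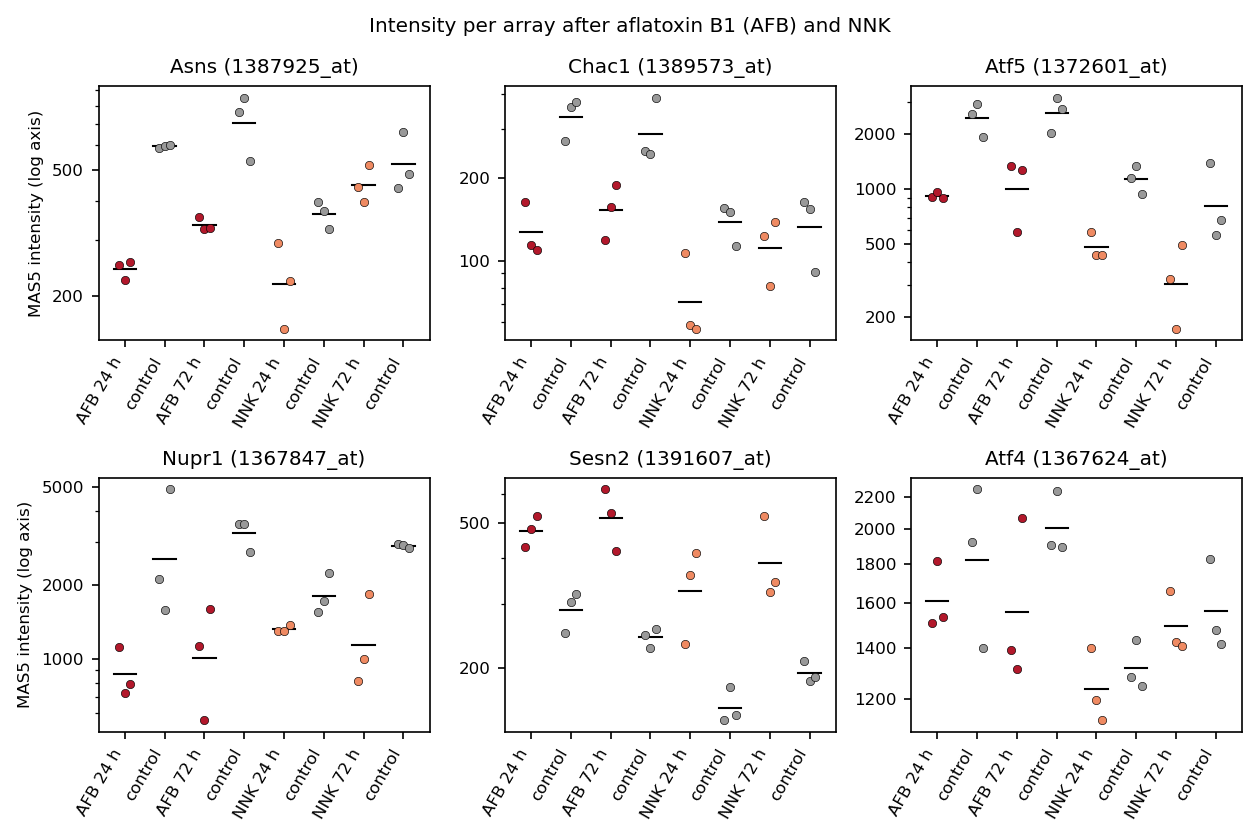
MAS5 intensity per array (log axis) of 6 genes in aflatoxin B1 cells, NNK cells and their own controls. Each point is 1 of 3 arrays and each bar the geometric mean. Asns, Atf5 and Nupr1 of all aflatoxin B1 arrays lie below the controls of the same time, Sesn2 of all exposed arrays lies above, and Atf4 overlaps.

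Of 30 further ATF4 targets measured, 1 rose and 14 fell after 24 h of aflatoxin B1, with a median change of -0.77, and 1 rose and 12 fell after 72 h, with a median of -0.60. Without D number 3, 1 rose and 5 fell at 24 h and 2 rose and 13 fell at 72 h, so the count at 24 h depends on those arrays. Psat1, of serine synthesis, read 109, 78.5 and 35.1 in aflatoxin B1 cells at 24 h, against 571, 631 and 677 in controls. Its change of -3.22 ± 0.36 (adjusted p = 1.81e-08) was larger in size than that of any of the 13 member probe sets in this comparison, and it was -2.70 without D number 3. Phgdh, the first enzyme of the same pathway, changed by -2.90 ± 0.28 at 24 h (adjusted p = 2.88e-10). The liver hormone gene Fgf21 changed by -1.98 ± 0.59 at 24 h (adjusted p = 0.045) and did not pass without D number 3 (adjusted p = 0.322). Gdf15, also known as a p53 target, rose by 2.73 at 24 h and 2.67 at 72 h. Atf3 and Ppp1r15a, the stress-induced subunit of the eIF2 phosphatase, did not pass at either time, with changes of 0.53 and 0.05 at 24 h.

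Of 19 aminoacyl-tRNA synthetases, which charge tRNAs with amino acids, none rose and 7 fell at each time after aflatoxin B1, with medians of -0.61 and -0.50. Without D number 3, 3 fell at 24 h and 10 at 72 h. Lars1 read 502, 448 and 356 in aflatoxin B1 cells at 24 h, against 696, 711 and 688 in controls (adjusted p = 0.000936). Aars1 changed by -0.72 ± 0.15 at 72 h (adjusted p = 0.00105). None of 23 genes of the other arms of the unfolded protein response passed at either time, while 5 of them fell at 72 h in the fit without D number 3. The chaperone gene Hspa5 changed by 0.09 and -0.27. Of 14 genes for eIF2 kinases, subunits, exchange factor and phosphatase, Eif2s1 rose at 24 h (0.48 ± 0.13, adjusted p = 0.0316) and none passed at 72 h. Without D number 3 Eif2s1 did not pass (adjusted p = 0.309) and 1 of the 14 fell at 72 h. Of 12 p53 targets, 9 rose at 24 h and 8 at 72 h, and none fell, and 8 rose at each time without D number 3. Mdm2, the p53 ubiquitin ligase, rose by 1.96 and 2.18.

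Markers of macrophages, a cell type that hepatocyte isolates can hold, lay higher in the aflatoxin B1 cultures: 12 of 14 had a change above 0 at 24 h and 13 of 14 at 72 h, none passing. Their summed intensities were 1577 to 3212 in aflatoxin B1 cells and 798 to 1842 in controls at 24 h, and 1812 to 2597 in aflatoxin B1 cells and 853 to 1640.0 in controls at 72 h. The 9 hepatocyte markers summed to 41350.0 to 46560.0 in aflatoxin B1 cells and 29030.0 to 44480.0 in controls at 24 h, with 8 of 9 above 0, and to 26090.0 to 49120.0 in aflatoxin B1 cells and 36900.0 to 43860.0 in controls at 72 h, with 3 of 9 above 0, none passing. Of 9 markers of stellate cells 7 had a change above 0 at each time, none passing, with sums of 284 to 891 in aflatoxin B1 cells and 278 to 776 in controls at 24 h, and 469 to 1180.0 in aflatoxin B1 cells and 277 to 661 in controls at 72 h. Without D number 3, 2 macrophage markers and 1 of 5 endothelial markers passed as higher at 72 h. None of the macrophage markers was at the floor of the scale on all arrays, and the part of these markers in the results was not tested. In such mixed cultures fewer cells of a type and less RNA per cell cannot be told apart.

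**Figure D3:**
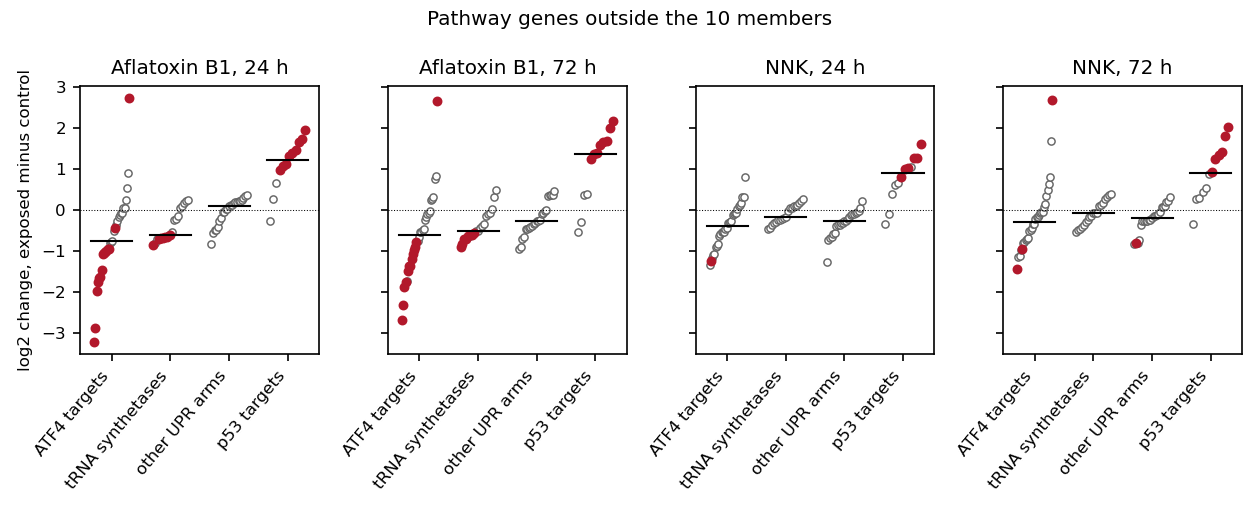
Log2 change of each gene of 4 gene lists outside the 10 members, in aflatoxin B1 and NNK cells minus their controls at both times. Filled points have an adjusted p under 0.05 and bars are list medians. After aflatoxin B1 the ATF4 targets and tRNA synthetases that passed lie below 0, except Gdf15, and the p53 targets that passed lie above 0.

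Promoter sequence was looked up for the 10 genes, since several of them moved together after aflatoxin B1. The motif TGATGNAA, the core of the element bound by pairs of ATF4 and C/EBP factors, was searched on both strands of RefSeq promoters (assembly GRCr8, 250 bases before to 50 after the start). It was found in 3 of the 10, against 1332 of 33469 promoters of the same length (3.98%). The 10 were picked as genes of the ATF4 and CHOP response, so this difference in share is not a result of these data. The 3 stretches of 120 bases around the motif are shown in the direction of the gene, with the motif in capitals.
Chac1, chr3:126795908-126796027, + strand: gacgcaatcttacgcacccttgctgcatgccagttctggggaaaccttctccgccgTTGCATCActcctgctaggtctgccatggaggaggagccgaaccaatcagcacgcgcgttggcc
Nupr1, chr1:190645893-190646012, - strand: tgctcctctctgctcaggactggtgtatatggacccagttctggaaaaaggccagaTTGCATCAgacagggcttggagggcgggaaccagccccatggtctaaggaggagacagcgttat
Trib3, chr3:161275491-161275610, - strand: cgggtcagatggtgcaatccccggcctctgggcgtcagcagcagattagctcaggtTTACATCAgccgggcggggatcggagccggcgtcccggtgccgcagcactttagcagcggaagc
All 3 matches read TGATGNAA on the strand opposite to the gene, so that the printed letters are its reverse complement. The match starts 167 bases upstream of the start in Chac1, 55 in Nupr1 and 21 in Trib3. Of these genes, Chac1 and Nupr1 fell after aflatoxin B1 while no Trib3 probe set passed. The windows of Asns and Atf5, which fell as well, hold no such letters, nor do those of Atf4, Ddit3, Ddit4, Ddit4l and Sesn2. However, the windows of Asns, Atf5 and Ddit4l lie inside the annotated gene and not at its outer start. That of Atf5 spans chr1:104434746-104435045, while the gene, on the - strand, begins at 104437611. Sequence before the outer start of these genes was not searched.

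In cells exposed to NNK, a tobacco-specific nitrosamine, Sesn2 was higher at both times and Atf5 and Nupr1 were lower at 72 h. At 24 h 1 of the 13 probe sets rose and none fell, against 0.421% rising and 0.499% falling over all probe sets tested, and at 72 h 2 rose and 2 fell, against 1.67% and 1.65%. The median change of the 13 was -0.13 at 24 h and -0.07 at 72 h, against 0.01 and -0.02 over all probe sets. Here the arrays with the same D number pair, and the fit with that number as a block called 3 probe sets at 24 h, with Atf5 and Asns added, and 6 at 72 h.

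Sesn2 read 233, 359.5 and 413 in NNK cells at 24 h with the brighter probe set, against 144, 177 and 148 in controls. The 72 h values were 522, 323 and 344 in NNK cells, against 209, 184 and 188 in controls. The groups were apart at both times, with changes of 1.07 ± 0.26 (adjusted p = 0.0246) and 1.00 ± 0.26 (adjusted p = 0.0171). The dimmer probe set changed by 0.67 ± 0.35 at 24 h (adjusted p = 0.591) and rose by 1.30 ± 0.35 at 72 h (adjusted p = 0.021), or 0.76 with log2(value + 16). The 24 h call of the brighter probe set was lost in 5 of the 6 fits with 1 array left out, all but that without NNK replicate 1, with adjusted p up to 0.33 (without NNK replicate 3). Its 72 h call was lost without NNK replicate 1 (adjusted p = 0.186) and without control replicate 2 or 3 (adjusted p = 0.0619 and 0.0845). The 72 h call of the dimmer one was lost without NNK replicate 1 (adjusted p = 0.149) and without control replicate 1 or 3 (adjusted p = 0.17 and 0.0567).

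Atf5 read 325, 173 and 494 in NNK cells at 72 h, against 1395, 565 and 678 in controls. At 24 h it read 585, 440.2 and 439 in NNK cells, against 1145, 1340.3 and 944 in controls. No exposed array reached a control array at either time. The 72 h change was -1.42 ± 0.36 (adjusted p = 0.0137), and the call was lost without NNK replicate 2 (adjusted p = 0.212) or control replicate 1 (adjusted p = 0.148). The 24 h change of -1.23 ± 0.36 did not pass (adjusted p = 0.0871) and did with the block (adjusted p = 0.019).

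Nupr1 read 815, 996 and 1846 in NNK cells at 72 h, against 2947, 2913 and 2827 in controls. The groups were apart, and Nupr1 was 2.53-fold lower (-1.34 ± 0.33, adjusted p = 0.0128). That call was lost without NNK replicate 1 (adjusted p = 0.138), NNK replicate 2 (adjusted p = 0.0876) or control replicate 3 (adjusted p = 0.0545). Asns read 294, 158 and 223 in NNK cells at 24 h, against 397, 372 and 327 in controls. These groups did not overlap, and the change of -0.74 ± 0.22 (adjusted p = 0.0938) passed with the block (adjusted p = 0.0265). At 72 h Asns read 444, 397 and 519 in NNK cells, against 441, 662 and 488 in controls, which overlapped. Chac1 read 107, 58.6 and 56.8 in NNK cells at 24 h, against 156, 151 and 114 in controls, and its change of -0.97 ± 0.31 did not pass (adjusted p = 0.143). Without NNK replicate 1, Asns and Chac1 passed at 24 h, with changes of -0.96 and -1.26 (adjusted p = 0.0169 and 0.0289).

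Atf4 changed by -0.09 ± 0.17 at 24 h (95% interval -0.43 to 0.24) and -0.07 ± 0.17 at 72 h (95% interval -0.40 to 0.27). Ddit3 changed by -0.24 ± 0.49 and 0.65 ± 0.49, and neither passed. Ddit4l and Ddit4, inhibitors of mTORC1 signalling, changed by 1.72 ± 0.56 (adjusted p = 0.0762) and 0.76 ± 0.33 (adjusted p = 0.228) at 72 h, and both passed with the block (adjusted p = 0.0318 and 0.0386). Of the 30 further ATF4 targets, 1 fell at 24 h (Phgdh, -1.24 ± 0.28, adjusted p = 0.0133). At 72 h Gdf15 rose by 2.69, and Aldh1l2, of mitochondrial one-carbon metabolism, and Gpt2, an alanine transaminase, fell by 1.44 and 0.97 on the log2 scale. No synthetase passed at either time, Eif2ak2, an eIF2 kinase, rose by 0.77 and Atf6, a sensor of the unfolded protein response, changed by -0.82 at 72 h (adjusted p = 0.0422 and 0.0259), and 6 of 12 p53 targets rose at each time. Macrophage markers summed to 1060.0 to 2009 in NNK cells and 1244 to 2335 in controls at 24 h, and to 1073 to 2440.0 in NNK cells and 1025 to 2445 in controls at 72 h. The difference between the effects of NNK and aflatoxin B1 was not tested.

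Wy-14643, an agonist of PPAR alpha, was the only compound after which Ddit3 passed in the main fit. After 72 h of aflatoxin B1 Ddit3 passed without D number 3 (1.80, adjusted p = 0.0149) and with the block (adjusted p = 0.0401). In the Wy-14643 comparison labelled 72 h, 2 of the 13 probe sets rose (Ddit3 and Ddit4l) and none fell, against 2.82% rising and 4.49% falling over all probe sets. The median change was 0.68 over the 13 and -0.03 over all. With the D number as a block 5 passed, with 2 of the 3 Trib3 probe sets and Sesn2 added.

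Ddit3 read 79.6, 991 and 678 in Wy-14643 cells of D numbers 1, 2 and 3, against 82.7, 104 and 236 in controls of the same numbers. Replicates 2 and 3 stood far above all controls, while replicate 1 was at the level of its control. Trib3 showed the same split, with 126, 1127 and 701 in Wy-14643 cells, against 136, 214 and 387 in controls with the first of its probe sets. The change of Ddit3 was 1.57 ± 0.49 (adjusted p = 0.0383) and those of Trib3 were 1.05 ± 0.45, 0.88 ± 0.44 and 1.07 ± 0.41 (adjusted p = 0.152, 0.25 and 0.0997). With the block the first and last of these passed (adjusted p = 0.0344 and 0.0124). Without Wy-14643 replicate 1, all 3 passed, with changes of 1.99, 1.80 and 1.88, and 6 of the 13 were called. Without replicate 2 the change of Ddit3 was 0.88 (adjusted p = 0.507). It was 1.15 without replicate 3 (adjusted p = 0.209), and the call was lost as well without control replicate 1 or 2 (adjusted p = 0.194 and 0.148). Without all arrays of D number 3 it was 1.60 (adjusted p = 0.0396), and without the high-actin arrays the call was kept too (adjusted p = 0.0237). It was lost in the groups of the same D numbers (adjusted p = 0.421) and without the filter on dim signals (adjusted p = 0.067). The Wy-14643 arrays of replicates 2 and 3 had the lowest medians of all 72 arrays, 15.8 and 17.0, against 19.7 for replicate 1. Replicate 2 also had the highest share of values at the floor (23.9%). With quantile normalization between arrays the Ddit3 call was kept. The part of these array differences in the results was not tested.

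Sesn2 also read highest in replicate 2, at 268, 655 and 379 in Wy-14643 cells, against 246, 227 and 256 in controls. Every exposed array was above every control array, the change was 0.74 ± 0.26 (adjusted p = 0.0694), and it passed with the block (adjusted p = 0.0362) and without Wy-14643 replicate 1 (1.04, adjusted p = 0.00721). Ddit4l read 12.8, 71.3 and 33.1 in Wy-14643 cells, against 5.36, 9.75 and 14.8 in controls, with replicate 1 within the control range. Its change of 1.76 ± 0.56 (adjusted p = 0.0419) lost the call without Wy-14643 replicate 2 or 3 (adjusted p = 0.425 and 0.0863), without control replicate 1 or 2 (adjusted p = 0.219 and 0.0989) and without D number 3, where it was 2.06 (adjusted p = 0.0539), and kept it without the high-actin arrays (adjusted p = 0.0285). The call was lost as well in the groups of the same D numbers (adjusted p = 0.302) and without the filter (adjusted p = 0.0721), and with log2(value + 16) the change was 0.95. Asns, Chac1 and Atf5 did not pass. Asns read 584, 1112 and 627 in Wy-14643 cells, against 766, 849 and 535 in controls, a change of 0.08 ± 0.22. Chac1 changed by -0.65 ± 0.31 and Atf5 by -0.69 ± 0.36 (adjusted p = 0.21 and 0.261). Atf4 read 1457, 2743 and 1962 in Wy-14643 cells, against 1907, 2243 and 1896 in controls, a change of -0.02 ± 0.17 (95% interval -0.35 to 0.32).

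**Figure D4:**
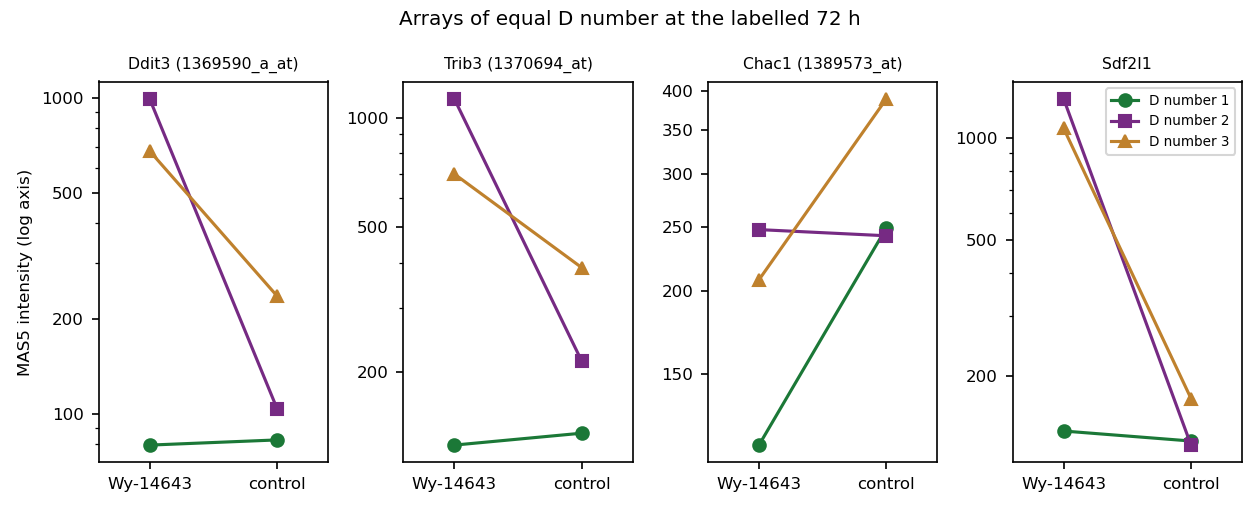
MAS5 intensity (log axis) of 3 members and of Sdf2l1 in Wy-14643 cells and controls labelled 72 h, with lines joining arrays of equal D number. For Ddit3, Trib3 and Sdf2l1 the lines of D numbers 2 and 3 slope steeply and that of D number 1 is nearly level, whereas Chac1 of D number 2 is level.

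The other arms of the unfolded protein response included genes that split by replicate in the same way. Of 23 measured, 4 rose and none fell in Wy-14643 cells labelled 72 h, with a median change of 0.43, and without D number 3, 2 rose and 1 fell. Sdf2l1, which assists chaperones in the endoplasmic reticulum, read 138, 1300.0 and 1065 in Wy-14643 cells, against 129, 125 and 172 in controls (2.04 ± 0.38, adjusted p = 0.000224). Creld2 read 140.2, 1033 and 756 in Wy-14643 cells, against 155, 170.3 and 261 in controls. Like Sdf2l1 it was high in replicates 2 and 3 and not in replicate 1. Creld2 rose by 1.33, Dnajc3 by 1.07 and Dnajb11 by 0.76. Creld2 and Dnajb11 did not pass without D number 3 (adjusted p = 0.0605 and 0.104). Hspa5 read 2225, 5335 and 5177 in Wy-14643 cells, against 3148, 3450.0 and 3000.0 in controls, and did not pass. Of the 30 further ATF4 targets Slc3a2 and Pck2 rose, by 1.23 and 1.09, where Slc3a2 did not pass without D number 3 (adjusted p = 0.108), and of the 19 synthetases Wars1, Sars1 and Qars1 rose, with 4 of the 19 higher without D number 3. Psat1 changed by -0.51 and did not pass. Hepatocyte markers were lower here, with 3 of 9 called lower and sums of 23960.0 to 31240.0 in Wy-14643 cells against 36900.0 to 43860.0 in controls. Macrophage markers were lower as well, with 4 of 14 called lower, 1 of 14 above 0 and sums of 504 to 943 in Wy-14643 cells against 853 to 1640.0 in controls. Without D number 3, 5 of 9 hepatocyte and 7 of 14 macrophage markers were called lower. Their part in the results was not tested.

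Ddit4l gave the changes of greatest size among the 13 probe sets, and those in nifedipine cells were the largest. The filter on dim signals kept Ddit4l only through exposed groups in which it was high, so passing the filter is no support for its rises. Without the filter its calls in nifedipine and 2-nitrofluorene cells were kept. Ddit4l (REDD2) is a relative of Ddit4 (REDD1), and both restrain mTORC1. In nifedipine cells, exposed to a calcium channel blocker, 1 of the 13 probe sets rose at each time and none fell, against 0.271% rising and 0.188% falling over all probe sets at 24 h and 1.35% and 1.83% at 72 h. The median change of the 13 was 0.14 and 0.28, against -0.02 and -0.07 over all probe sets.

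Ddit4l read 55.2, 81.0 and 36.9 in nifedipine cells at 24 h, against 2.54, 19.9 and 3.78 in controls. After 72 h its values were 91.1, 90.9 and 127 in nifedipine cells, against 18.4, 9.69 and 7.59 in controls. All exposed arrays were above all controls, and all controls were dim, near or below the middle of all values on the arrays (19.7). The changes were 3.15 ± 0.56 (adjusted p = 0.00297) and 3.20 ± 0.56 (adjusted p = 0.000368), or 8.90-fold and 9.20-fold on the floored scale, where control replicate 1 at 24 h lay at the floor of 3.12. With log2(value + 16) the changes were 1.60 and 2.10, both called, so the size of the fold rests on how dim signals are treated. The 72 h call was kept with any 1 array left out, and the 24 h call was lost only without that control (adjusted p = 0.0571).

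Ddit4 read 370.2, 604 and 244 in nifedipine cells at 24 h, against 128, 211 and 143 in controls. The nifedipine arrays lay above all controls, and the change of 1.28 ± 0.33 just missed the threshold (adjusted p = 0.0639) and passed with the block (adjusted p = 0.00126) and without nifedipine replicate 3 (1.59, adjusted p = 0.0188) or control replicate 2 (1.49, adjusted p = 0.0416). At 72 h it changed by 0.45 ± 0.33 (adjusted p = 0.536). Nupr1 read 2259.6, 1842 and 1155 in nifedipine cells at 72 h, against 3403, 2896 and 3228 in controls, and its change of -0.91 ± 0.33 (adjusted p = 0.118) passed with the block (adjusted p = 0.0491). Atf5 changed by -1.03 ± 0.36 at 24 h (adjusted p = 0.228). Ddit3 changed by -0.34 and 0.28, Atf4 by 0.24 and 0.21, and Asns by 0.14 and 0.14 at 24 h and 72 h, and none passed.

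Of the 30 further ATF4 targets, 4 rose and none fell in nifedipine cells at 72 h. Psat1 read 1455, 1407 and 1576 in nifedipine cells, against 473, 601 and 535 in controls (1.47 ± 0.36, adjusted p = 0.015), and Shmt2, Slc1a4 and Vegfa rose by 1.41, 1.24 and 0.99. At 24 h Psat1 rose (1.64) and Gpt2 fell (-0.95). Ero1a, an oxidase of the endoplasmic reticulum that CHOP and hypoxia are known to induce, read 744, 629.5 and 714 in nifedipine cells at 72 h, against 118, 135 and 130.0 in controls (2.45 ± 0.36, adjusted p = 2.56e-05). It was the 1 gene of 23 of the other arms of the unfolded protein response to pass, at both times. Macrophage markers were lower at 72 h, with 2 of 14 called lower, 1 of 14 above 0 and sums of 555 to 1232 in nifedipine cells against 981 to 2160.0 in controls, and their part in these results was not tested.

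After 24 h of 2-nitrofluorene Ddit4l read 29.6, 33.0 and 25.9 in exposed cells, against 2.54, 19.9 and 3.78 in controls, which are the controls of nifedipine as well. The groups were apart and Ddit4l rose by 2.25 ± 0.56 (adjusted p = 0.023). It was the 1 of 13 probe sets that rose, none fell, and over all probe sets 0.792% rose and 0.338% fell. The call was lost in 5 of the 6 fits with 1 array left out, all but that without control replicate 2, with adjusted p of 0.0653 to 0.279. It was lost too with log2(value + 16) in place of the floor, where the change was 0.94 (adjusted p = 0.116). At 72 h none of the 13 passed, against 0.809% of all probe sets in either direction, and Ddit4l changed by 0.89 ± 0.56. Of the other lists, Farsa, a synthetase subunit, rose by 0.56 at 24 h (adjusted p = 0.0337). At 24 h the hepatocyte marker Ahsg fell by 0.97 on the log2 scale (adjusted p = 0.0357), and none of 9 hepatocyte markers was above 0. Their sums were 36230.0 to 43400.0 in 2-nitrofluorene cells against 45710.0 to 61790.0 in controls. The other compounds set against these controls gave a similar picture at 24 h. In nifedipine cells 0 of 9 were above 0, with sums of 40870.0 to 49750.0, and in piperonyl butoxide cells 1 of 9, with sums of 39600.0 to 46280.0. Of 14 macrophage markers 1 was above 0 at each time, none passing. Their sums were 918 to 1550.0 in 2-nitrofluorene cells against 1292 to 2259 in controls at 24 h. At 72 h they were 579 to 1304 in 2-nitrofluorene cells against 981 to 2160.0 in controls. Against the same controls 1 of the 14 was above 0 in nifedipine cells and 2 in piperonyl butoxide cells, at each time. The part of these markers in the Ddit4l result was not tested. None of 12 p53 targets passed in 2-nitrofluorene cells at either time, and Asns changed by 0.12 ± 0.22 and 0.11 ± 0.22. The difference between the 3 genotoxic compounds was not tested.

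Clonidine gave no call, but Ddit4l was high. It read 63.8, 66.9 and 26.0 in clonidine cells at 24 h, against 6.47, 25.4 and 12.7 in controls. After 72 h its values were 58.5, 18.2 and 61.4 in clonidine cells, against 5.36, 9.75 and 14.8 in controls. All clonidine arrays lay above all controls, with changes of 1.91 ± 0.56 and 2.13 ± 0.56, and neither passed (adjusted p = 0.318 and 0.283), where 0.0166% and 0.0332% of all probe sets did. Without D number 3 or the high-actin arrays there was no call either. The change of Ddit4l at 72 h was larger than in Wy-14643 cells, where it passed, and the adjusted p depends on how many probe sets pass in each comparison. Atf4 changed by 0.44 ± 0.17 at 24 h (adjusted p = 0.515) and 0.19 ± 0.17 at 72 h.

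**Figure D5:**
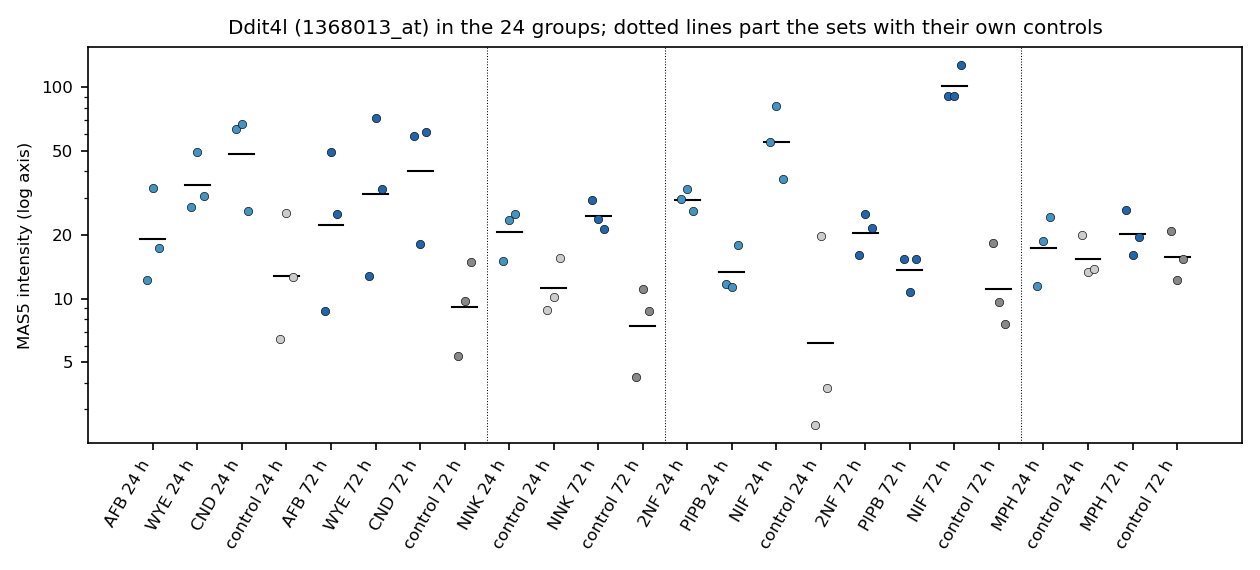
MAS5 intensity of Ddit4l per array (log axis) in all 24 groups, with light points for 24 h, dark points for 72 h, blue points for exposed cells, grey points for controls and bars for geometric means. Nifedipine groups are highest, and no control array lies above 25.4.

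Piperonyl butoxide, methapyrilene and 24 h of Wy-14643 left the 13 probe sets without a call. Over all probe sets 0.0887% passed after 24 h of piperonyl butoxide, 0.0443% after 24 h of Wy-14643, and 0% after 72 h of piperonyl butoxide and at both times of methapyrilene. For piperonyl butoxide the 13 changes ran from -0.51 to 1.12 at 24 h and from -0.40 to 0.31 at 72 h. For methapyrilene they ran from -0.34 to 0.17 and from -0.38 to 0.36. At 24 h of Wy-14643 they ran from -0.40 to 1.43, the last being Ddit4l, which read 27.2, 49.2 and 30.6 in Wy-14643 cells, against 6.47, 25.4 and 12.7 in controls. Ddit3 in methapyrilene cells read 70.6, 89.9 and 108 at 72 h, against 80.5, 87.2 and 86.7 in controls. The 95% interval of its change, -0.94 to 1.05 on the log2 scale, spans changes in either direction, so these values do not show that the compound lacks an effect.

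Differences between the 72 h and the 24 h effect of a compound were tested as interactions. For aflatoxin B1, Wy-14643 and clonidine they include D number 3, whose time labels go against its culture-time score. For these compounds a lack of calls does not show equal effects at both times. None of 104 passed in limma's test, 3 had an unadjusted p under 0.05, and the smallest adjusted p was 0.637. Over all probe sets 0% to 0.116% passed per compound, most in nifedipine cells. The lack of calls is therefore not particular to the members. The 3 were Ddit3 and the brighter Sesn2 probe set in Wy-14643 cells, with differences of 1.60 ± 0.70 and 0.87 ± 0.37, and the dimmer Sesn2 probe set in nifedipine cells, with -1.03 ± 0.49. Without Wy-14643 replicate 1 labelled 72 h, the difference of Ddit3 was 2.72 and passed (adjusted p = 0.0123). Between control cultures of 72 h and of 24 h, 1 of 52 differences passed over the 4 control sets, where 0% to 2.85% of all probe sets passed per set. The share of 0% was that of the controls of aflatoxin B1, Wy-14643 and clonidine, which include D number 3. The difference that passed was 1 of 13 in the controls of the 2-nitrofluorene set, where 1.4% of all probe sets rose and 1.31% fell. Asns read 490.2, 618 and 497 in the 72 h controls of the 2-nitrofluorene set, against 371, 319.8 and 256 in its 24 h controls, a rise of 0.77 ± 0.22 (adjusted p = 0.0429), and with the D number as a block 2 of the 52 passed.

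Control levels of some members lay higher in one set. The 6 control arrays shared by aflatoxin B1, Wy-14643 and clonidine read 242 to 389 for Chac1, 1921 to 3164 for Atf5 and 136 to 429 for the first Trib3 probe set. The 18 control arrays of the other sets read 90.9 to 211 for Chac1, 553 to 2103 for Atf5 and 69.9 to 173 for that Trib3 probe set. The ranges of Chac1 were apart and those of Atf5 and Trib3 overlapped. Control set and D number cannot be told apart, so an order of levels across sets mixes the compound with its set and is given as a description only. Over all 72 arrays Atf4 ran from 1127 to 2764, a narrow range beside those of Ddit3 (61.6 to 991) and Ddit4l (2.54 to 127). Over both times the median of Atf4 was 1914 in the controls of the clonidine set and 1426 in those of NNK, and that of Asns 601 and 419. Atf4 was highest in clonidine cells at 24 h and lowest in NNK cells at 24 h, Asns highest in clonidine cells at 72 h and lowest in NNK cells at 24 h, and Chac1 highest in the 24 h controls of the aflatoxin B1 set and lowest in NNK cells at 24 h. Atf5 was highest in Wy-14643 cells at 24 h and lowest in NNK cells at 72 h, and Nupr1 highest in clonidine cells at 72 h and lowest in aflatoxin B1 cells at 24 h. Ddit3 and all 3 Trib3 probe sets were highest in Wy-14643 cells labelled 72 h, both Sesn2 probe sets and Ddit4 in aflatoxin B1 cells at 72 h, and Ddit4l in nifedipine cells at 72 h. With the 24 groups in order of level, neighbours differed by more than the SD within groups in 2 of 23 steps for Asns, in 1 for Atf5, Chac1, Ddit4l and 1 Trib3 probe set, and in none for the other 8 probe sets.

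Across the 48 arrays of exposed cells, each as its difference from the mean of its control group, the members were set against the other genes. These correlations describe arrays that share compounds and controls, and carry no test. Asns followed Phgdh (r = 0.89), Cmss1 (r = 0.86) and Grb10 (r = 0.85), and Atf5 followed Aldh1l2 (r = 0.84), Eprs1 (r = 0.80) and Mat1a (r = 0.79). Chac1 was most like the synthetase genes Lars1 (r = 0.81) and Cars1 (r = 0.79) and Mthfd2 (r = 0.76). The brighter Sesn2 probe set was most like Ccng1 (r = 0.83), Slc19a2 (r = 0.81) and Phlda3 (r = 0.81), of which Ccng1 and Phlda3 are on the list of p53 targets. Ddit3 was most like Cfdp1 (r = 0.83), Ube2s (r = 0.83) and Selenos (r = 0.82), and Nupr1 like Arhgef2 (r = 0.79), Cmss1 (r = 0.77) and Slc39a11 (r = 0.74). Ddit4l was most like Slc17a3 (r = 0.80) and the redox genes Srxn1 (r = 0.78) and Txnrd1 (r = 0.77). The dimmer Sesn2 probe set was most like Dus1l (r = 0.79), Pck1 (r = 0.74) and Phlda3 (r = 0.71). Among the members, the 3 Trib3 probe sets went together (r = 0.82 to 0.89), as did both Sesn2 probe sets (r = 0.69) and Asns and Chac1 (r = 0.74), while Atf5 and the brighter Sesn2 probe set ran in opposite directions (r = -0.56).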

How the data were processed

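RNA of 72 cultures was measured on the Affymetrix Rat 230 2.0 array. The deposited values are linear signal intensities that the authors made with MAS5, per the submitters' processing notes, and scaling steps were not given in the sources used here. All 57 control probe sets were left out, intensities under the 20th percentile of the table (3.12) were set to it, and log2 was taken of the deposited intensities. A probe set was kept where at least 1 group mean reached the table median (19.7), which left 18048 of 31099 (58.1%). The platform annotation gives 20826 probe sets 1 symbol, 436 several and 9780 none, and symbols were updated through RefSeq. The trimmed mean of the deposited values was 99.99 on every array, so the arrays share a common scale. Array medians ran from 15.8 to 23.8, and 17.4% to 23.9% of the values of an array lay at the floor. No 2 arrays were the same (highest correlation 0.985), and 3 arrays per group limit the precision.

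Group means were fitted over all 24 groups with limma 3.58.1 (R 4.3.3; moderated with a mean trend, 48 residual degrees of freedom). Each compound was compared with its control of the same time, with Benjamini-Hochberg adjustment over all kept probe sets and a threshold of 0.05. Adjusted p-values and 95% intervals in the text are from this fit unless an alternative is named. The 3 arrays of a group are independent experiments, per the labels' protocols. The p-values rest on a spread per probe set that is pooled within all 24 groups and moderated. They do not measure the spread of the groups compared alone. For Ddit3 the SD of log2 values was 1.96 in Wy-14643 cells labelled 72 h and 0.63 pooled within groups. The main fit does not use the D numbers. The D numbers in the labels pair exposed and control arrays for 7 compounds, where deviations of same-numbered arrays correlated at 0.27 to 0.83. For aflatoxin B1, 2 of its pairs correlated at -0.26 and -0.29 and the others at 0.27 to 0.67. Those 2 pairs set its high-actin arrays outside D number 3 against controls that are not high-actin. The block was the D number.

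The members and the gene lists were chosen with earlier results of these data known. All 13 member probe sets are named. A listed gene was read from its kept probe set of highest mean, and the named ones are those with the largest changes that passed, plus fixed genes of the pathway. The genes most like a member are the 3 of highest correlation. The fit was tested on simulated data. Alternatives were the block, log2(value + 16), no filter, quantile normalization, the groups of the same D numbers alone, leaving out D number 3, leaving out arrays with a log2 3' over 5' actin ratio above 1.5, and leaving out each array in turn. Reading the gene lists without D number 3 was added after seeing the data.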

Additional observations from a re-analysis of the deposited data

Results flagged for a closer look

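The following 3 cases were picked from 104 pairs of probe set and compound. Their probe sets moved in opposite directions at the 2 times in every same-numbered pair of exposed and control arrays. The share of all probe sets with that pattern is not given here, so the number of cases is not a result about the members. Ddit3 in NNK cells changed by 0.65 at 72 h and by -0.24 at 24 h, a difference of 0.89 (adjusted p of the interaction = 0.999). Atf5 in Wy-14643 cells changed by -0.69 at 72 h and by 0.20 at 24 h, a difference of -0.88 (adjusted p = 0.793). The brighter Sesn2 probe set in Wy-14643 cells changed by 0.74 at 72 h and by -0.13 at 24 h, a difference of 0.87 (adjusted p = 0.733). None of these differences passed in limma's test over all probe sets. The Wy-14643 results include the arrays of D number 3, whose time labels go against their culture-time score.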

How the results depend on the processing

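Of the 19 calls, quantile normalization kept 19, log2(value + 16) kept 18, no filter 17, the groups of the same D numbers alone 14, leaving out D number 3 15, and leaving out the high-actin arrays 13. Leaving out in turn each of the 6 arrays behind a call lost the call in 38 of 114 pairs of call and left-out array. No call reversed under any of these. With the D number as a replicate block all 19 were kept and 30 of 208 passed. The cause of the changes below was not tested. Leaving out the high-actin arrays leaves 1 aflatoxin B1 array at each time, which is assumed to vary like the other groups, so those counts for aflatoxin B1 are not of the same form as the others. Reading the gene lists without D number 3 was chosen after seeing the data. After 24 h of aflatoxin B1 the 5 called probe sets became 3 in the groups of the same D numbers, 2 without D number 3 and 1 without the high-actin arrays, with 3 to 5 as each array was left out. After 72 h the 4 became 7 without D number 3 and 2 without the high-actin arrays. For aflatoxin B1, whose D numbers do not pair all of the arrays, the block added Ddit3 (adjusted p = 0.0401) and Chac1 (adjusted p = 0.0345) at 72 h. For NNK at 24 h, 1 became 3 with the block and in the groups of the same D numbers and 2 without the high-actin arrays (0 to 3 as each array was left out), and at 72 h 4 became 1 to 4 as each array was left out. For 2-nitrofluorene at 24 h, 1 became 0 with log2(value + 16), and 0 to 1 as each array was left out. For Wy-14643 labelled 72 h, 2 became 5 with the block, 0 without the filter, 0 in the groups of the same D numbers and 1 without D number 3, and 0 to 6 as each array was left out. For nifedipine, 1 at each time became 2 with the block, in the groups of the same D numbers, without D number 3 and without the high-actin arrays (0 to 2 at 24 h as each array was left out). Of the interactions 0 passed, and 0 to 1 as each array was left out. The 1 call between control times became 2 with the block, 0 without the filter, 3 in the groups of the same D numbers, and 2 without D number 3 or the high-actin arrays, and 0 to 1 as each array was left out. Signals near the floor, as of Ddit4l in controls, limit the size of a fold.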
